A study of Xenopus tropicalis with 12 samples.

Results

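The genes nudt22, inhbb, fam83g and lman1l were followed through metamorphosis of the brain of Xenopus tropicalis, a frog. They had been proposed as genes that peak at the metamorphic climax, and each was found by its symbol in the annotation of the deposited tables. Each symbol matched 1 gene model, and each of these models carried no other name, so that 4 of the 33875 models in the data are described, all 4 of them among the 19584 that passed the filter on low counts. RNA had been taken from a dissected block of wild-type brain that holds the preoptic area, hypothalamus and thalamus, at Nieuwkoop-Faber (NF) stages NF50 (premetamorphosis), NF56 (prometamorphosis), NF62 (climax) and NF66 (the end of metamorphosis). There were 3 libraries at every stage, and the replicate numbers in the labels are 1, 3 and 4 for NF50 and 1, 2 and 3 for the others. No group received a treatment according to the labels, all animals came from the same supplier, and the sources used here do not say how many animals stand behind a library. The p-values below therefore measure the spread between libraries of a stage.

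Tadpole metamorphosis is driven by thyroid hormone, whose level in the blood is highest around the climax, and the genes described here belong to unrelated families. The product of inhbb is the beta B subunit of the activins and inhibins, secreted dimers of the TGF-beta family. Activin B, a dimer of beta B chains, binds activin receptors and acts through Smad proteins, and it stimulates the release of follicle-stimulating hormone in the mammalian pituitary. In mammals, Fam83g (also called PAWS1) binds casein kinase 1 and takes part in BMP and Wnt signalling. NUDT22 belongs to the Nudix hydrolases, and the human enzyme splits UDP-glucose and UDP-galactose into UMP and a sugar phosphate. The product of lman1l is a relative of LMAN1, a lectin that carries glycoproteins from the endoplasmic reticulum to the Golgi.

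The genes were chosen by their measured levels at NF62, set against those of the neighbouring stages, with results of these data known, so each value that involves NF62 is given below as a description with no test. Tests are given for the contrasts among NF50, NF56 and NF66, which do not compare NF62. The NF62 libraries still entered the same fit and its estimate of the spread. The NF56 and NF66 libraries had served as the flanks against which a climax peak is judged, so their values were in view too when the genes were proposed. The adjusted p-values of the members below therefore set a difference beside the spread between libraries, and are not independent support for it. Levels are read counts scaled to library size (CPM) unless the deposited TPM, which also allow for gene length, are named. Total expected counts ran from 12046529 in NF56 replicate 3 to 31029733 in NF66 replicate 3. Of the marker lists, the 8 neuronal genes were present at a summed 5773 to 7402 CPM in every library. The thyroid hormone target genes klf9, thibz and dio3 all had a higher mean at NF62 than at its flanks, as described below.

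The peak was not shared by all members. In bulk tissue a lower level can mean fewer cells of a type or less RNA per cell, and these cannot be told apart. In nudt22, inhbb and fam83g every NF62 library lay above the other 9 libraries, which was so for 3.08% of all models tested, a share from which nothing is read because the choice of genes used it. For lman1l the label of a climax peak went against the data, since 2 of its 3 NF66 libraries were higher than every NF62 library. It is better described as a gene that was high at both late stages. In all 4 every NF66 library lay above every NF50 and NF56 library, a pattern seen in 13.6% of all models tested, and nothing is read from this either, since the NF56 and NF66 values were in view when the genes were proposed.

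**Figure D1:**
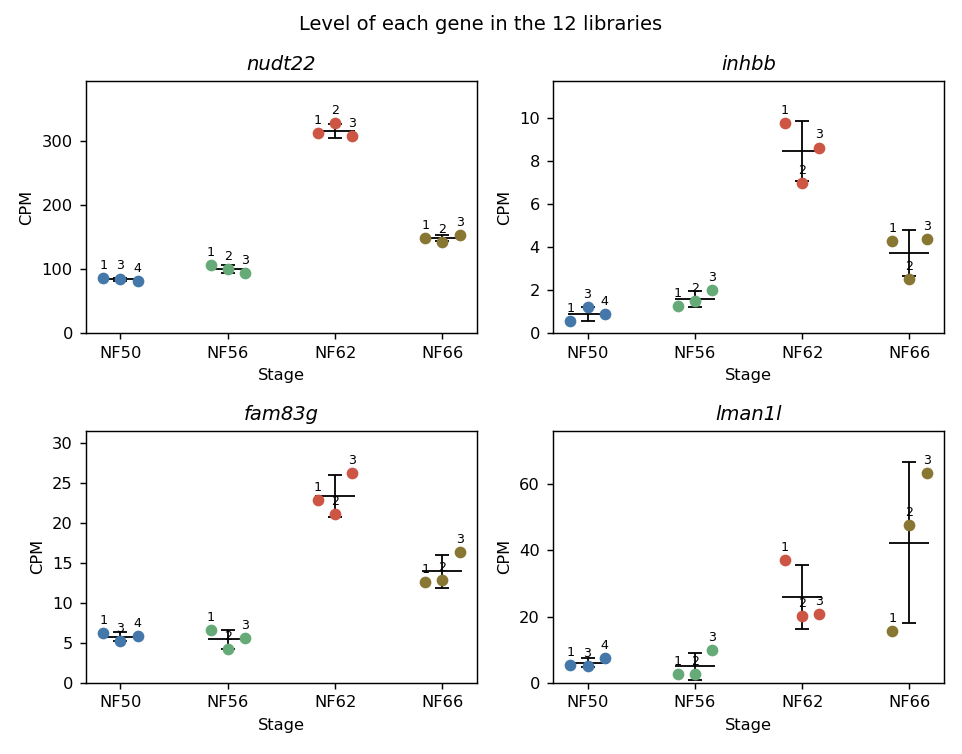
Level of nudt22, inhbb, fam83g and lman1l in each of the 12 libraries (CPM, from 0) at stages NF50, NF56, NF62 and NF66, with points for libraries numbered by replicate, a line for each stage mean and error bars of 1 SD (n = 3). The 3 NF62 points stand above all others for nudt22, inhbb and fam83g, whereas 2 NF66 points of lman1l stand above its NF62 points.

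The sugar-nucleotide hydrolase gene nudt22 was the most abundant and the least variable member. The NF50 libraries (replicates 1, 3 and 4) held 86.1, 85.4 and 81.9 CPM, and the NF56 libraries 107, 101 and 94.3 CPM. At NF62 it stood at 312, 329 and 309 CPM, and at NF66 at 149, 143 and 153 CPM. No 2 stages overlapped, and within each stage the libraries lay close together, with a coefficient of variation between 2.66% and 6.11%. The mean of 317 ± 10.7 CPM at NF62 (SD, n = 3) was 3.15 times that at NF56 and 3.75 times that at NF50. At NF66 the mean was 46.9% of the NF62 mean, which undid 77.8% of the step up from NF56. In terms of length-corrected abundance, the mean was 133 TPM at NF62, the highest of the 4 members.

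The levels of nudt22 at the other stages differed from each other as well. Its level rose from NF50 to NF56 by 0.25 ± 0.05 on the log2 scale (SE, adjusted p = 0.0115, edgeR quasi-likelihood test with Benjamini-Hochberg adjustment, as for all adjusted p-values here). The call was lost without NF50 replicate 4 (0.22, adjusted p = 0.0682, edgeR) and without NF56 replicate 1 (0.21, adjusted p = 0.056, edgeR), while the difference stayed about as large. Between NF56 and NF66 the log2 difference was 0.56 ± 0.05 (adjusted p = 5.66e-05, edgeR). In these libraries the share of nudt22 counts was higher at NF66 than at either tadpole stage, with NF66 exceeding NF50 by 0.81 ± 0.05 (adjusted p = 1.51e-06, edgeR).

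The activin subunit gene inhbb was the scarcest member in counts and had the highest ratio of NF62 to NF50. It had 11, 31 and 18 counts in NF50 replicates 1, 3 and 4, which is 0.546, 1.21 and 0.88 CPM. At NF56 it had 31, 31 and 25 counts, or 1.27, 1.51 and 1.99 CPM. The counts were higher in the late stages, and the NF62 libraries held 247, 172 and 202 counts, or 9.78, 7.01 and 8.64 CPM. At NF66 the counts were 93, 48 and 141, equal to 4.29, 2.52 and 4.38 CPM. All NF66 libraries lay between those of NF56 and those of NF62, without overlap. The NF62 mean of 8.48 ± 1.39 CPM (SD, n = 3) was 5.34 times the NF56 mean and 9.65 times the NF50 mean, and by NF66 the level had come down to 44.0% of the climax mean.

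Of the contrasts that leave out NF62, inhbb passed in both that involve NF66. It was higher at NF66 than at NF50 by 2.07 ± 0.31 on the log2 scale (adjusted p = 0.000358, edgeR). Against NF56 the difference was 1.26 ± 0.30 (adjusted p = 0.0118, edgeR), and it was 1.11 with an adjusted p of 0.0613 when NF56 replicate 1 was left out. Between the tadpole stages the difference of 0.80 ± 0.33 did not pass (adjusted p = 0.136, edgeR), and the libraries of NF50 and NF56 did not overlap. Per length, the means of inhbb were 1.58, 3.59, 18.7 and 8.27 TPM at NF50, NF56, NF62 and NF66. For inhba, which encodes the beta A chain of activin, they were 0.547, 0.867, 2.82 and 2.35 TPM. In CPM, which do not allow for gene length, the NF62 means were closer, at 8.48 for inhbb and 5.89 for inhba.

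The casein kinase 1 partner gene fam83g was flat in the tadpole and high at the climax. It measured 6.26, 5.18 and 5.87 CPM in NF50 replicates 1, 3 and 4, and 6.54, 4.18 and 5.56 CPM in NF56 replicates 1, 2 and 3. These 2 stages overlapped. The NF62 libraries reached 22.8, 21.1 and 26.2 CPM, and the NF66 libraries 12.6, 12.8 and 16.3 CPM. The climax and the end of metamorphosis did not overlap with each other or with the tadpole stages. The NF62 mean was 23.4 ± 2.61 CPM (SD, n = 3), 4.31 times that at NF56, and the NF66 mean was 59.6% of it, so that 52.6% of the step was undone. NF66 was higher than NF56 by 1.36 ± 0.17 on the log2 scale (adjusted p = 0.00029, edgeR) and higher than NF50 by 1.27 ± 0.17 (adjusted p = 0.000156, edgeR). The difference between NF56 and NF50, of -0.08 ± 0.18, did not pass (adjusted p = 0.78, edgeR). With a mean of 8.85 TPM at NF62, fam83g was the least abundant member per length at that stage.

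The lectin gene lman1l behaved otherwise. Its NF50 libraries held 5.51, 4.95 and 7.53 CPM, and its NF56 libraries 2.61, 2.53 and 9.77 CPM. At NF62 the levels were 37.1, 20.1 and 20.8 CPM. At NF66 they spread from 15.8 CPM in replicate 1 to 47.7 in replicate 2 and 63.5 in replicate 3. The late stages overlapped with each other and not with the tadpole stages, and NF56 replicate 3 stood well above the other NF56 libraries. The mean at NF66, 42.3 ± 24.3 CPM (SD, n = 3), was 163% of the NF62 mean of 26.0 ± 9.63 CPM, so the step from NF56 to NF62 was not undone on average. The coefficient of variation within a stage was 22.6% at NF50 and 83.7% at NF56.

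For lman1l the contrasts without NF62 passed where they set the end of metamorphosis against the tadpole. Its level rose from NF56 to NF66 by 3.17 ± 0.61 on the log2 scale (adjusted p = 0.00357, edgeR), and by 4.04 without NF56 replicate 3. The difference between NF66 and NF50 was 2.82 ± 0.58 (adjusted p = 0.00288, edgeR). From NF50 to NF56 the change of -0.35 ± 0.61 did not pass (adjusted p = 0.736, edgeR), with values of -1.21 to -0.02 when each library was left out in turn. The fitted NF66 to NF62 difference of 0.71 ± 0.53 is a description, and ran from 0.29 to 1.1 over the same leave-outs.

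Counted over the members, 1 of 4 was higher at NF56 than at NF50, in a comparison where 6.51% of all models were called higher. All 4 were higher at NF66 than at NF56, against 11.0% of all models, and all 4 were higher at NF66 than at NF50, against 17.9%. None was called lower in any of these contrasts. Nothing is read from these counts, since the NF56 and NF66 values were in view when the genes were proposed. The order of stages by mean level was NF50, NF56, NF66 and NF62 for nudt22 and inhbb, with the NF50 and NF56 neighbours of inhbb not separated by the test. It was NF56, NF50, NF66 and NF62 for fam83g and NF56, NF50, NF62 and NF66 for lman1l, again with the tadpole stages not separated.

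**Figure D2:**
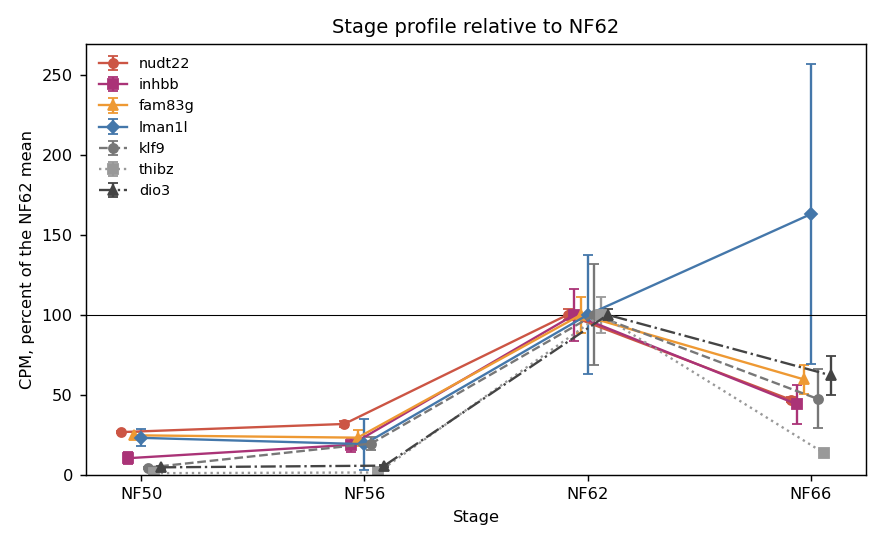
Mean level at each stage as a percentage of the gene's own NF62 mean (CPM, error bars SD over 3 libraries) for the 4 genes, with klf9, thibz and dio3 in grey. At NF66 nudt22, inhbb and fam83g had come down to 46.9%, 44.0% and 59.6%, while lman1l stood at 163% with wide error bars.

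The size of the climax step can also be put as NF62 against the mean of its flanks, NF56 and NF66, on the log2 scale. This difference was 1.37 ± 0.05 for nudt22, 1.81 ± 0.23 for inhbb, 1.42 ± 0.14 for fam83g and 0.88 ± 0.47 for lman1l (SE). Among all models tested, 4.42% were called higher and 3.3% lower in this contrast. Ranked by log2 difference the members were at places 24 (inhbb), 46 (fam83g), 50 (nudt22) and 172 (lman1l). Nothing is read from these places, because the choice of genes used the NF62 levels. For lman1l the difference was positive although its NF66 mean lay above its NF62 mean. All 4 listed direct targets of the thyroid hormone receptor were called higher in this contrast. That list was drawn up with earlier results of these data known, so the count is not independent support. The transcription factor gene thibz was higher by 4.47 ± 0.31, dio3, whose product inactivates thyroid hormone, by 2.41 ± 0.13, and the Kruppel-like factor gene klf9 by 1.72 ± 0.25. The thyroid hormone targets also differed among themselves in how far they came down by NF66. The difference of NF66 from NF62 passed for thibz and dio3, while that of klf9, -1.07 ± 0.30, did not (adjusted p = 0.0838, edgeR). The mean of thibz went from 52.5 ± 5.87 CPM at NF62 to 7.08 ± 0.60 at NF66, that of dio3 from 58.6 ± 2.17 to 36.4 ± 7.07 and that of klf9 from 136 ± 43.0 to 64.5 ± 25.1 (SD, n = 3).

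Relatives of the members and genes of related pathways were taken from lists, with the members left out. They were tested at NF62 against the mean of its flanks. Whether they work with the members was not tested. The lists were drawn up with earlier results of these data known, so these tests are not independent support. Of 144 list genes tested, 15 (10.4%) were called higher and 3 (2.08%) lower, beside the 4.42% and 3.3% of all models, with a median log2 difference of 0.06 against -0.002 for all models tested. Fewer of them passed when single climax libraries were left out, down to 9 without NF62 replicate 1 and 10 without NF62 replicate 3. None passed by limma on log2(TPM + 1), with 8 at an unadjusted p below 0.05. About as many would fall below that unadjusted threshold if no gene differed, so nothing is read from the 8. The list members named below are those with the largest differences among the genes that passed.

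The counts of called genes in the lists around inhbb are small, and are to be read beside the 4.42% of all models called higher and 3.3% called lower. Among 5 ligand genes tested 1 was higher and 1 lower. The beta A subunit gene inhba had 1.34 ± 0.36, 1.71 ± 0.32, 5.89 ± 0.58 and 4.82 ± 0.77 CPM at NF50, NF56, NF62 and NF66 (SD, n = 3). At NF62 inhba exceeded the mean of its flanks by 1.04 ± 0.18 on the log2 scale (adjusted p = 0.0073, edgeR). Its difference of NF66 from NF62, -0.285 ± 0.209, did not pass (adjusted p = 0.595, edgeR). The TGF-beta family ligand gene gdf1 was lower at NF62 than the mean of its flanks by 0.71 ± 0.14 (adjusted p = 0.0121, edgeR). Its level was 6.24 ± 0.55 CPM at NF56, 3.38 ± 0.58 at NF62 and 4.93 ± 0.59 at NF66. The gdf1 difference of NF66 from NF62, 0.54 ± 0.16, did not pass (adjusted p = 0.096, edgeR). Of 9 receptor genes 2 were called higher, acvr1, a type I receptor, by 0.43 ± 0.09 and a model shared by acvr1b and grasp by 0.24 ± 0.05 (adjusted p = 0.0145 for each, edgeR). The level of acvr1 was 28.1 ± 1.3 CPM at NF56, 48.9 ± 2.86 at NF62 and 46.6 ± 7.50 at NF66 (SD, n = 3). For acvr1 too the difference of NF66 from NF62, -0.07 ± 0.10, did not pass (adjusted p = 0.864, edgeR). The model shared by acvr1b and grasp counts reads of either gene. The receptor genes acvr2a and acvr2b, whose products bind activin, did not pass, with differences of -0.07 and -0.14.

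Of 13 genes for extracellular and intracellular inhibitors of these ligands 3 were called higher and 0 lower, against 4.42% and 3.3% of all models. The follistatin-like gene fstl3, whose product binds and blocks activins, stood at 7.04 ± 0.43, 6.67 ± 1.28, 15.6 ± 2.31 and 9.91 ± 1.0 CPM through the 4 stages (SD, n = 3). Its climax difference was 0.95 ± 0.13 (adjusted p = 0.00232, edgeR). The inhibitory Smad gene smad6 was higher by 0.52 ± 0.07 (adjusted p = 0.00178, edgeR). A model shared by fst, the follistatin gene, and ndufs4, a gene of mitochondrial complex I, was higher by 0.38 ± 0.08 (adjusted p = 0.0127, edgeR). Among 7 Smad effector genes, smad9, of the BMP branch, was the only gene called, at 0.50 ± 0.07 (adjusted p = 0.00245, edgeR). The activin-branch genes smad2 and smad3 had differences of 0.02 and 0.30 and did not pass.

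**Figure D3:**
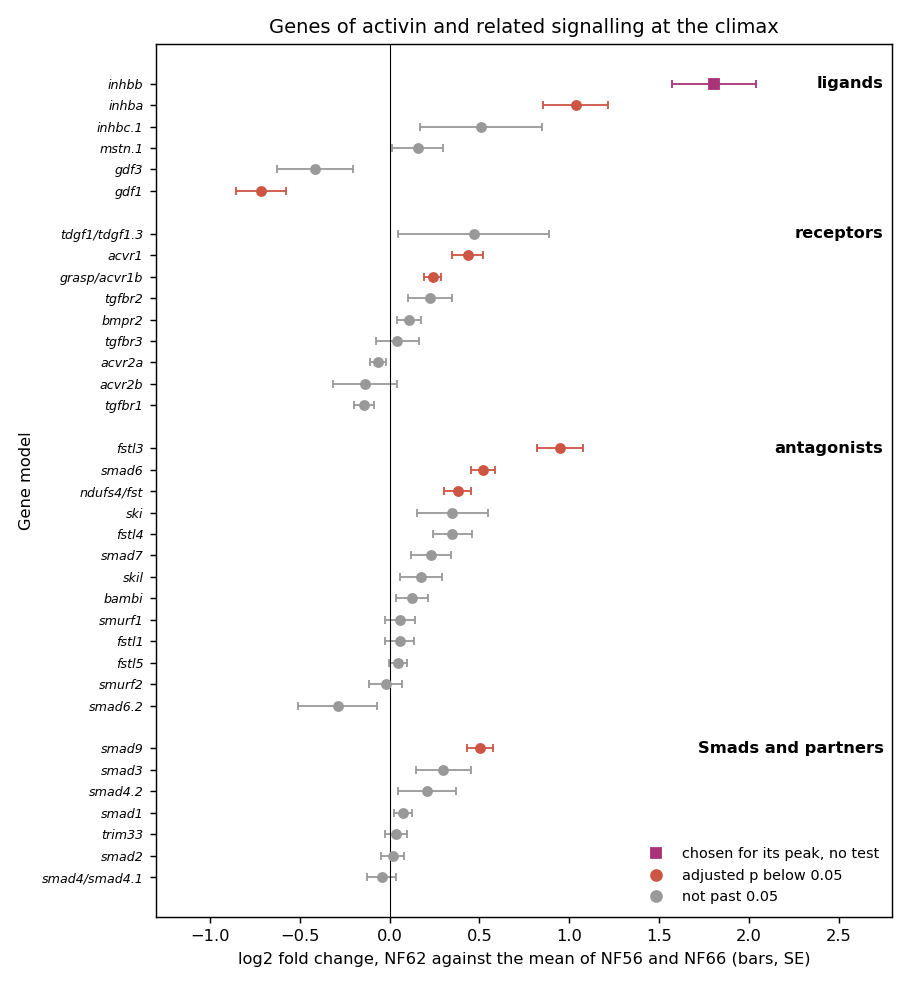
Log2 difference of NF62 from the mean of NF56 and NF66 (error bars, SE) for genes of activin and related signalling, grouped as ligands, receptors, antagonists and Smads with partners. Red points passed the adjusted threshold of 0.05, among them inhba at 1.04 and fstl3 at 0.95 on the right and gdf1 at -0.71 on the left, and inhbb, chosen for its peak, is a purple square with no test.

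The reproductive hormone genes that activins act on in the pituitary had few counts in these libraries. The gene fshb had 1 to 6 counts per library, lhb 0 to 14 and the receptor gene fshr 0 to 1, all below the filter. Of 5 genes tested, 1 was higher, the receptor gene gnrhr2, at 0.83 ± 0.20 (adjusted p = 0.0307, edgeR). Its level was 0.81 ± 0.13 CPM at NF56, 2.06 ± 0.24 at NF62 and 1.68 ± 0.42 at NF66 (SD, n = 3). The gnrhr2 difference of NF66 from NF62, -0.29 ± 0.23, did not pass (adjusted p = 0.636, edgeR). Of 8 tested markers of pituitary cells 2 were called higher at the climax and 6 were not called, beside 4.42% of all models called higher. The called markers were chga at 0.29 ± 0.06 (adjusted p = 0.0103, edgeR) and the model shared by prl and prl.1 at 1.28 ± 0.32 (adjusted p = 0.0361, edgeR). The hormone subunit gene cga did not pass, with 10.9 ± 0.69 CPM at NF56, 8.51 ± 4.17 at NF62 and 3.47 ± 1.24 at NF66 (SD, n = 3). The list summed to 283 to 307 CPM at NF62, above the 244 to 257 at NF56 and 236 to 253 at NF66. At NF50, where inhbb was lowest, the sum was 222 to 279 CPM. In this sum the mean of chga was 176 ± 6.82 CPM at NF56 and 240 ± 2.62 at NF62 (SD, n = 3). At NF66 it was 219 ± 6.17 CPM. From NF56 to NF62 the mean of chga rose by more than the sum did, so the mean sum of the other tested markers fell. That mean sum without chga was lower again at NF66. The model shared by prl and prl.1 went the other way at the climax, from 2.93 ± 1.11 CPM at NF56 to 7.58 ± 3.04 at NF62 (SD, n = 3). Of the 8 markers 3 were called lower and 1 higher at NF66 than at NF56. Among all models 11.0% were called higher in that contrast and about as many lower. The median log2 difference was -0.71, beside -0.003 for all models tested. Against NF50, 5 were lower and 1 higher at NF66, with a median of -1.22 beside 0.021. There 17.9% of all models were called higher and about as many lower. Among the pituitary markers prl.2, tshb, fshb and lhb were below the filter, with at most 5, 12, 6 and 14 counts in a library. The part of these cells in the level of inhbb was not tested.

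Of 18 genes for FAM83 proteins, casein kinase 1 and Wnt components, ctnnb1, which encodes beta-catenin, was the only gene called, higher by 0.17 ± 0.04 (adjusted p = 0.0282, edgeR). That count is near the 4.42% of all models called higher, and nothing is read from it. The relatives fam83d and fam83h had differences of -0.19 ± 0.15 and -0.003 ± 0.191, neither past the test. The relatives fam83a, fam83b and fam83c were below the filter, with at most 3, 6 and 10 counts in a library. Annotation places fam83g inside the gene slc5a10, which encodes a sugar transporter of the sodium-coupled family, in the RefSeq assembly UCB_Xtro_10.0. Whether the counting used the strand is not given, so reads of the overlap cannot be told apart. The level of slc5a10 was 3.03 ± 1.12 CPM at NF62 against 1.97 ± 0.72 at NF56 (SD, n = 3), and its climax difference of 0.46 ± 0.29 did not pass (adjusted p = 0.425, edgeR). The adaptor gene grap on the other side was higher by 0.73 ± 0.18 (adjusted p = 0.0322, edgeR).

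Of 15 other Nudix genes tested none was called by edgeR in the climax contrast, where 4.42% of all models were called higher, so the count is near the background. The differences of the named nudt genes ran from -0.48 ± 0.16 for nudt6 (adjusted p = 0.101, edgeR) to 0.11 ± 0.13 for nudt18 (adjusted p = 0.744, edgeR), and nudt8 had no count in any library. Among 24 genes of UDP-sugar metabolism, gfpt1 was called, an enzyme at the entry to hexosamine synthesis, higher by 0.29 ± 0.04 (adjusted p = 0.00235, edgeR). Of 12 pyrimidine salvage genes, the uridine kinase gene uck2 was called, lower than the mean of the flanks by 0.27 ± 0.06 (adjusted p = 0.0295, edgeR). Its level was 48.1 ± 0.91, 41.8 ± 1.41, 26.1 ± 1.38 and 23.6 ± 2.06 CPM at NF50, NF56, NF62 and NF66 (SD, n = 3). The mean of uck2 thus declined through all stages and was not lowest at NF62. The neighbours of nudt22 in the RefSeq table, dnajc4 and a non-coding RNA, were not analysed here.

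Around lman1l, 5 of 36 genes of the lectin and early secretory pathway list were called higher at NF62 and 1 lower, beside 4.42% and 3.3% of all models. Among those called higher, the genes with the largest differences were mcfd2, the cofactor with which LMAN1 binds its cargo, at 0.41 ± 0.07 (adjusted p = 0.00666, edgeR), and tmed7, a cargo receptor gene of the p24 family, at 0.28 ± 0.04 (adjusted p = 0.00313, edgeR). The level of mcfd2 went from 47.3 ± 4.1 CPM at NF56 through 68.1 ± 3.49 at NF62 to 55.7 ± 4.15 at NF66 (SD, n = 3). For mcfd2 the difference of NF66 from NF62, -0.29 ± 0.08, did not pass (adjusted p = 0.0864, edgeR). A model shared by tmed2 and eif2s3 was lower than the mean of the flanks by 0.43 ± 0.08 (adjusted p = 0.00997, edgeR). Among the closest relatives, lman1 passed at 0.24 ± 0.06 (adjusted p = 0.0435, edgeR), while lman2 and lman2l, at 0.19 ± 0.07 and 0.17 ± 0.07, did not. The flanking genes ulk3 and cplx3 did not pass either, and cplx3 had stage means from 5.20 ± 0.10 to 8.09 ± 0.34 CPM (SD, n = 3). Likewise sec22a and ralb, next to inhbb, did not pass, at 0.08 ± 0.10 and 0.25 ± 0.17. At NF66 against NF50, where lman1l was higher, 4 of the 36 list genes were called higher and 7 lower. Of all models 17.9% were called higher there and about as many lower, so nothing is read from these counts. The median log2 difference of the list in that contrast was -0.05, against 0.021 for all models tested.

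The genes whose pattern over the 12 libraries was most like that of each member were sought among 10551 models, by Pearson's r of log2 CPM. These correlations are a description, because the libraries share their stages. For nudt22 they were gde1 (r = 0.977), slc30a9 (r = 0.975) and c11orf49 (r = 0.965), for inhbb slc37a3 (r = 0.978), nceh1 (r = 0.978) and rab3c (r = 0.977), and for fam83g lrpap1 (r = 0.978), vax2 (r = 0.968) and a model shared by pkm2 and pkm (r = 0.967). Likeness of pattern did not mean a step of the same size. The NF62 mean of gde1 was 73.3 ± 3.50 CPM against 47.0 ± 2.90 at NF56, and that of rab3c 564 ± 31.4 against 338 ± 19.4 (SD, n = 3). Among the members themselves nudt22, inhbb and fam83g had r between 0.90 and 0.94, and lman1l had 0.64 with nudt22, 0.71 with inhbb and 0.81 with fam83g.

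Those most like lman1l were scgn, the gene of the calcium-binding protein secretagogin (r = 0.972), matn4, which encodes a matrix protein (r = 0.97), and rasgrp1, which encodes an activator of Ras (r = 0.969). The most like 3 were chosen by their likeness over these same libraries. Neither that likeness nor the shared order of libraries given next is therefore a finding in itself. Within all 4 stages the libraries of rasgrp1 stood in the same order as those of lman1l. The level of rasgrp1 was 9.19, 8.16 and 11.9 CPM for the NF56 libraries, 21.2, 13.7 and 15.4 CPM for those of NF62 and 16.1, 23.2 and 27.2 CPM for those of NF66. The NF56 library with high lman1l was thus also the NF56 library with high rasgrp1, and the NF66 library with low lman1l had the lowest rasgrp1 of its stage. For scgn the order was the same within NF50 and NF66, and for matn4 within NF66.

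**Figure D4:**
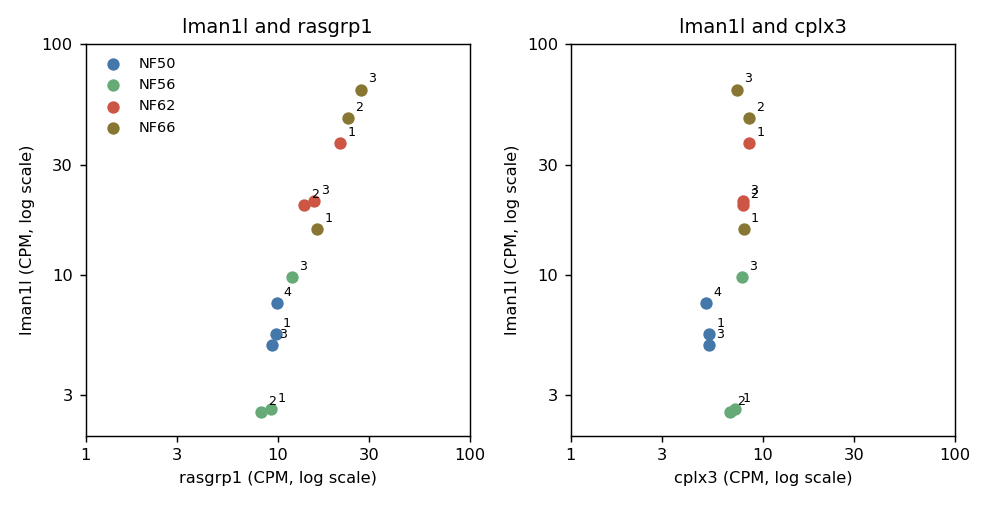
Level of lman1l in each of the 12 libraries against rasgrp1 (left) and its neighbour in the genome cplx3 (right), in CPM on log axes, coloured by stage and numbered by replicate. Within each stage the libraries with more rasgrp1 had more lman1l, whereas cplx3 lay between 5.1 and 8.5 CPM in all libraries. The gene rasgrp1 was picked for its likeness to lman1l over these libraries, and cplx3 for its place in the genome.

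Markers of other cells that the dissected block could hold were set beside the member levels. For choroid plexus and ependyma, 0 of 10 tested genes were called by edgeR at NF62 against its flanks, and ttr had at most 2 counts. Vascular and meningeal genes gave 1 of 13 higher and epithelial genes 2 of 9 higher. In the same contrast neuronal genes gave 2 of 8 higher, syt1 and nefl, radial glia genes 1 of 5 lower, vim, and oligodendrocyte genes 0 of 6. These small counts are to be read beside the 4.42% of all models called higher and 3.3% called lower. The means of syt1 and nefl were not highest at NF62, with 873 ± 32.9 and 351 ± 51.7 CPM there and 904 ± 43.0 and 364 ± 68.0 at NF66 (SD, n = 3). The mean of vim declined through all stages, from 375 ± 8.77 through 195 ± 4.96 and 81.8 ± 4.05 to 73.8 ± 1.29 CPM (SD, n = 3). The epithelial genes called were epcam at 0.67 ± 0.16 (adjusted p = 0.0281, edgeR) and a model shared by cdh1 and cdh3 at 0.68 ± 0.13 (adjusted p = 0.0109, edgeR), the latter with 3.0 ± 0.44 CPM at NF56, 7.34 ± 0.73 at NF62 and 6.96 ± 0.82 at NF66 (SD, n = 3). The summed epithelial level was 299 to 344 CPM at NF50, 198 to 234 at NF56, 198 to 238 at NF62 and 162 to 189 at NF66. Red blood cell, microglial and muscle genes gave 1 lower each, of 5, 9 and 12. The oligodendrocyte genes were at 912 to 1054 CPM at NF50, 1059 to 1115 at NF56, 1590 to 1919 at NF62 and 1883 to 2670 at NF66. Of these, 5 of 6 were called higher at NF66 than at NF56. In that contrast 11.0% of all models were called higher and about as many lower. Neuronal genes gave 4 of 8 higher and 3 lower at NF66 against NF56. Radial glia genes fell in 3 of 5 cases in that same contrast. So did 6 of 10 choroid plexus and ependymal, 3 of 5 red blood cell and 4 of 12 muscle genes, with 1, 1 and 2 higher. Epithelial genes gave 3 of 9 lower and 2 higher there, and vascular genes 3 of 13 lower. The median log2 difference was -0.13 for neuronal, -0.27 for radial glia and -0.95 for choroid plexus and ependymal genes, beside -0.003 for all models tested. The part of these cell types in the member levels was not tested.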

How the data were processed

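Expected counts had been deposited by the authors for 33875 gene models in 12 libraries, with the effective length of each model and a length-scaled signal in TPM in the tables per library, per the file headers. Deposited lengths are given as effective lengths in bases, per the file headers. Tools listed in the submitters' processing notes are RSEM, Bowtie, cutadapt, DESeq2 and CASAVA 1.8.2. Neither a genome build, nor an annotation, nor the strand setting of the counting is given in the sources used for this work, and coordinates are left out. Promoter and protein sequences were not analysed here.

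Expected counts that were not whole (53.7% of them) were rounded. Models were kept by edgeR's filterByExpr (minimum count 10, minimum total 15), which left 19584 with 99.93% of the counts. All 12 libraries entered a quasi-likelihood fit, with stage as the factor and TMM scaling, in edgeR 4.0.16 (R 4.3.3), with Benjamini-Hochberg adjustment at 0.05 over all models. The fit was tested on simulated data with 200 changed genes. Alternatives used DESeq2 1.42.0, limma 3.58.1 on log2(TPM + 1), other scalings and filters, a replicate block, and leaving out each library. CPM were scaled by library total and TMM factor.

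The members, the pathway and marker lists, and the tests were chosen with earlier results of these data known. Named genes are the members, the 3 models most like each (Pearson's r of log2 CPM with a prior count of 2, average log2 CPM of at least 1), the genes next to them in the RefSeq table, up to 3 called genes with the largest differences of each pathway list, and close paralogs.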

Additional observations from a re-analysis of the deposited data

How the results depend on the processing

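Beside the reported fit, 8 other settings and 12 leave-one-out fits were run. No called member value changed direction in these fits, while the uncalled NF56 to NF50 difference of fam83g ran from -0.25 to 0.08 over the leave-one-out fits. Of the called values 3 lost their call under limma on log2(TPM + 1), nudt22 at NF56 against NF50 (0.62, adjusted p = 0.0916) and at NF66 against NF56 (0.51, adjusted p = 0.195) and inhbb at NF66 against NF56 (0.98, adjusted p = 0.12). That scale shifted the median of all models by 0.32 at NF56 against NF50 and 0.29 at NF66 against NF50. On it the climax difference of fam83g was 1.15. The cause was not tested.

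The number of models called was 2834 at NF56 against NF50, 4135 at NF66 against NF56, 7196 at NF66 against NF50 and 1512 at NF62 against its flanks. Limma gave 455, 818, 4566 and 46. The climax count was 2280 by DESeq2. Of the pathway genes 18 were called, 29 by DESeq2 and 0 by limma. The labels do not say that a replicate number marks a shared animal or batch. Deviations from the stage means correlated at 0.45 to 0.64 in the 9 pairs of libraries numbered 2 or 3 and at -0.18 to 0.09 in the 6 pairs numbered 1, so the numbers were not taken as pairs for all libraries, and the reported calls have no block. With the replicate block 5443, 6402 and 3247 models were called at NF56 against NF50, NF66 against NF56 and NF62 against its flanks, and 32 pathway genes. The block changed no call of a member.

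Leaving out single libraries gave 1609 to 3060, 2908 to 4301, 5893 to 7487 and 544 to 1513 models called in the 4 contrasts, and 9 to 18 pathway genes. The log2 difference of nudt22 at NF56 against NF50 was 0.21 to 0.30 and that of inhbb at NF66 against NF56 1.11 to 1.47. The 3 models most like each member shared 1 of 3 with those ranked by Spearman's rho. Depth limits inhbb most, with 11 counts in its lowest library.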
